A study of Mus musculus with 10 samples.

Results

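Transcripts of 8 genes with no widely described role in the atrium were followed in the part of the mouse left atrium around the pulmonary veins, with and without the transcription factor gene Tbx5. The genes were Alox8, Aldh3b3, Sds, Slc7a7, Cilp2, Cdh22, Fcamr and Lmntd1, 8 of 54532 genes in the deposited gene table and 8 of the 17752 that passed the filter on low counts. They were picked by name for their fall after the deletion of Tbx5, in the same comparison of libraries that is described below. Their own fold changes in that comparison are therefore given as a description, with no test.

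The tissue came from 10 mice of 7 weeks: 4 controls (Ctrl) and 6 conditional mutants (CKO). Every animal was homozygous for R26creERT2, a Cre recombinase that works only after tamoxifen and is driven from the Rosa26 locus, and every animal was given tamoxifen on 3 days at 6 weeks of age. Tissue was taken 1 week later. Ctrl animals were Tbx5+/+ and CKO animals Tbx5flox/flox, so the groups shared the recombinase and the drug and differed in the floxed allele. Rosa26 is active in most cell types, so the recombinase is not a cardiomyocyte-specific one, and the cell types in which Tbx5 was deleted were not measured. The appendage had been cut away and only 1 to 2 mm of vein was left on the atrium. Each mean is given ± SD over n = 4 Ctrl or n = 6 CKO libraries, in CPM, the count scaled to library size.

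Tbx5 encodes a T-box protein, a transcription factor that binds short DNA motifs with the core GGTGTG and acts in the growth, patterning and rhythm of the heart. In the adult atrium it is known for keeping cardiomyocyte genes of contraction, ion handling and conduction active. The 8 genes belong to none of these groups. They comprise enzymes of lipid and amino acid metabolism (Alox8, Aldh3b3, Sds), an amino acid transporter (Slc7a7), a secreted matrix protein (Cilp2), cell surface proteins (Cdh22, Fcamr) and a little-studied protein with a lamin tail domain (Lmntd1).

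Library totals ran from 8602794 to 10040808 counts. The targeted gene was checked first: coverage of exon 3 of Tbx5, over the median exon of the same library, was 1.21, 1.70, 0.903 and 0.988 in Ctrl 1 to 4 and between 0.175 and 0.618 in the 6 CKO libraries. General knowledge of this allele, not the labels, places exon 3 between the recombination sites. Counts over the whole Tbx5 gene were 134 ± 31.6 CPM in Ctrl against 268 ± 105 CPM in CKO (edgeR quasi-likelihood adjusted p = 0.101) and do not check the deletion. Summed atrial cardiomyocyte markers were at 14013 to 21112 CPM in Ctrl libraries and 4771 to 7098 CPM in CKO libraries, and 8 of 10 fell, where 1.26% of all tested genes fell. The 10 markers of cardiomyocytes in general summed to 69823 to 113557 CPM in Ctrl libraries and 73978 to 134743 CPM in CKO libraries, and 3 rose, where 1.54% of all tested genes rose. Airway and alveolar transcripts, foreign to the atrium, reached summed levels of 1863 CPM (Ctrl 3) and 2930 CPM (CKO 4), with at most 93.7 CPM elsewhere. In bulk tissue fewer cells of a type and less RNA per cell cannot be told apart.

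The reference sequence was read for the T-box core in RefSeq windows of GRCm38.p6, here the 250 bases before each start. GGTGTG on either strand, overlapping matches allowed, was present in 2 of the 7 genes with a window and in 2 of their 11 windows. Among all 32851 windows of this length 5347 (16.3%) held it. The longer AGGTGTGA was in 0 of the 11 and in 368 of all windows (1.12%). Both matches are printed with the core in capitals, because they show where these letters stand relative to the start. In Aldh3b3 (chr19:3958751-3958780, plus strand) the core began 45 bases before the RefSeq start and in Cilp2 (chr8:69887443-69887472, minus strand) 68 bases before it.
Aldh3b3: accatgccattaGGTGTGggtgtaggagtg
Cilp2: aagacccagtctGGTGTGcgggggcgtggc
Both stretches lie inside the first exon of the main transcript: 3958645 to 3958913 for Aldh3b3 and 69887288 to 69887687 for Cilp2. They are thus upstream of the RefSeq start but not of the start of that transcript. A match is a string of letters, not a shown binding site. The first exon of the main Aldh3b3 transcript had almost no coverage even in Ctrl (0.000904 reads per base, against 1.21 in its second exon), so the start used in this tissue may be another. For the gene with the lowest fold change of the set, Alox8, the 250 bases before the start (chr11:69197844-69198093, minus strand) are given whole, and these letters hold no GGTGTG.
Alox8: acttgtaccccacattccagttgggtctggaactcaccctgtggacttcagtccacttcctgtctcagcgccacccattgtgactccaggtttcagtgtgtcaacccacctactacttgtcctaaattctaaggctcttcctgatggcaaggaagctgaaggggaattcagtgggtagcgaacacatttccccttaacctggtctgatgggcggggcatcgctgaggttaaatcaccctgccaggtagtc

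Every CKO library was below every Ctrl library for all 8 genes, as it was for 479 of the 17752 genes tested (2.70%). Since this contrast chose the genes, nothing is read from that count. The fitted log2 fold changes ran from -5.19 for Alox8 to -1.61 for Slc7a7 with a median of -3.41, beside a median of -0.03 over all genes tested. A value under -1.5 was found in 0.924% of tested genes. Ranked by fold change over all 17752 tested genes, from the lowest, 7 of the 8 stood between places 4 (Alox8) and 38 (Lmntd1) and Slc7a7 at place 126. Slc7a7 was thus a moderate decrease rather than among the strongest.

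**Figure D1:**
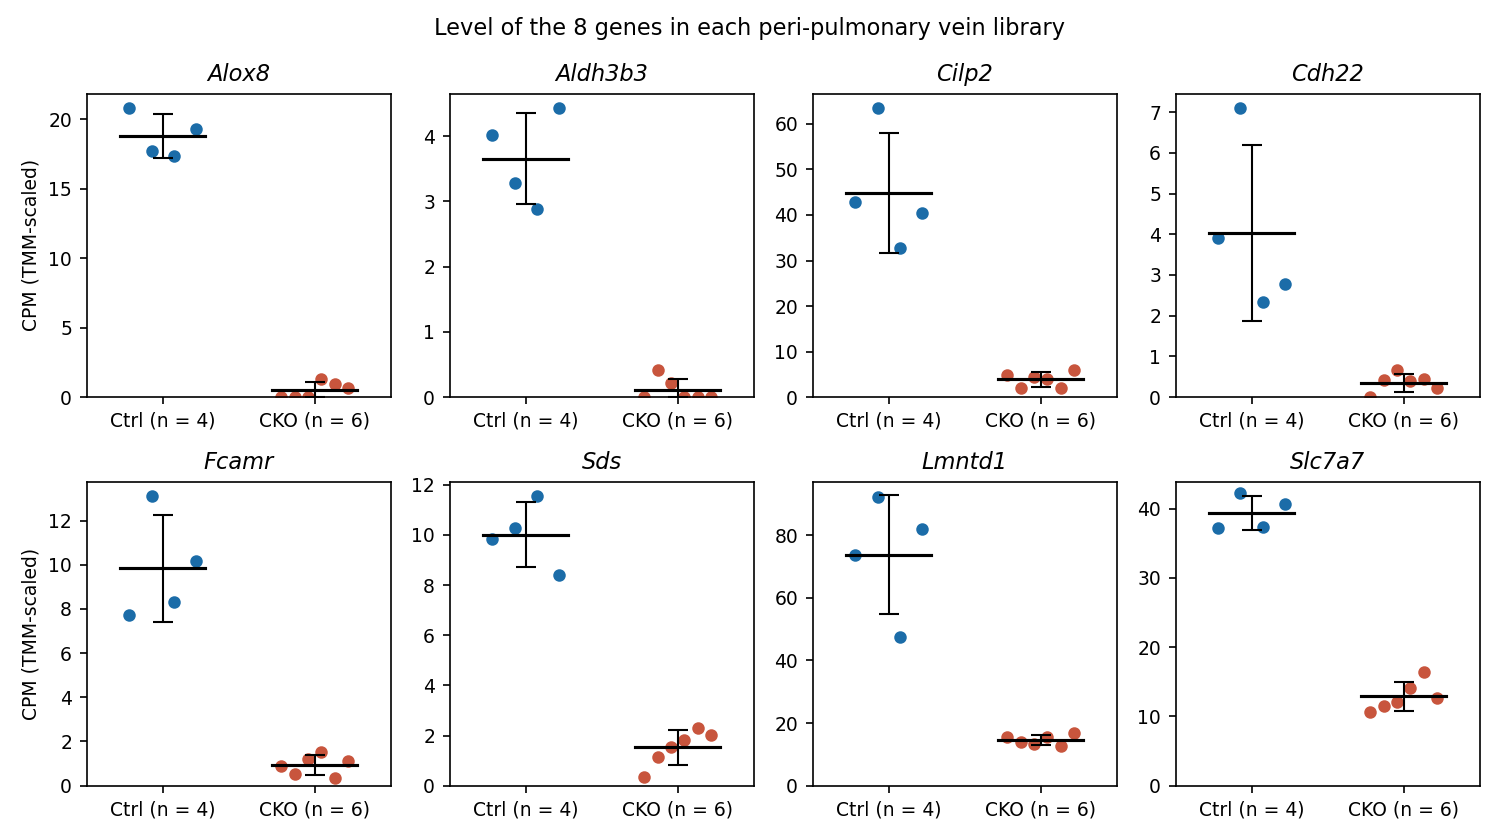
Level of each of the 8 genes in CPM (y axis, each panel on its own scale from 0) in the 4 Ctrl (blue) and 6 CKO (red) libraries, with a line at the mean and bars of 1 SD. The groups are apart in every panel, widest for Alox8 (18.8 against 0.496 CPM) and least for Slc7a7 (39.4 against 12.9 CPM).

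Alox8 encodes a lipoxygenase that adds oxygen to arachidonic acid, a step toward signalling lipids. Its gene (ENSMUSG00000020891) spans 69183932 to 69197843 of chromosome 11 on its minus strand. It stood at 20.8, 17.7, 17.3 and 19.3 CPM in Ctrl 1 to 4. In CKO the lowest library was at 0, the median 0.339 CPM and the highest 1.31 CPM. These values rest on 156 to 197 counts in each Ctrl library and on 28 counts in the 6 CKO libraries together. Alox8 fell from 18.8 ± 1.60 to 0.496 ± 0.579 CPM (log2 change -5.19, SE 0.68), so that 2.64% of the Ctrl mean was left.

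The CKO libraries did not behave alike for Alox8. CKO 1, 2 and 3 had 0 counts, and CKO 4, 5 and 6 had 13, 9 and 6. The first 3 are the CKO libraries with the X-inactivation RNA Xist at 1093 to 1371 CPM, and the other three have it at 2.82 to 6.44 CPM. Among controls Xist was high in Ctrl 1 and 2 (20.8 and 17.7 CPM of Alox8) and low in Ctrl 3 and 4 (17.3 and 19.3 CPM), which overlapped. With Xist as a covariate the fold change was -5.40. Sds and Slc7a7 were split in the same way. Sds was at 0.336 to 1.54 CPM in CKO 1 to 3 and at 1.82 to 2.29 CPM in CKO 4 to 6. Slc7a7 was at 10.6 to 12.1 CPM and at 12.7 to 16.4 CPM. The remaining genes of the set overlapped between these libraries. The part of sex in the CKO difference was not tested. Of the 14 exons of the main Alox8 transcript, the last kept 5.06% of its Ctrl coverage in CKO, from CKO 4, 5 and 6. In exons 1 to 13 no more than 1 CKO library had any coverage in any exon.

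Of 18 tested genes of arachidonic acid metabolism, edgeR called 0 higher and 0 lower, where 2.80% of all tested genes passed. At an unadjusted p under 0.05 there were 7 higher and 1 lower. DESeq2 called 3 higher (Ptgs2, Alox5ap and Hpgds) and limma voom 0. Over all tested genes DESeq2 called 692 higher and 440 lower, and limma voom 237 higher and 226 lower. The share of all genes at an unadjusted p under 0.05 is not given. Counts at that threshold, here and in the lists below, are therefore descriptions. Alox5, the enzyme of leukotriene synthesis, averaged 18.0 ± 4.59 CPM in Ctrl against 20.1 ± 5.52 CPM in CKO. Ephx2, a hydrolase of fatty acid epoxides, was at 179 ± 35.4 and 193 ± 16.3 CPM. Ptges3 was at 98.3 ± 21.2 and 105 ± 24.9 CPM. Alox5 was named after its values were seen.

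Aldh3b3 encodes an aldehyde dehydrogenase that oxidises long-chain fatty aldehydes. The gene (ENSMUSG00000037263) spans 3958645 to 3972103 of chromosome 19 on its plus strand. Its level was 4.01, 3.28, 2.89 and 4.43 CPM in Ctrl 1 to 4. In CKO the lowest and the median were 0 and the highest was 0.420 CPM, with 4 of 6 libraries at 0 counts. Counts were thus 26 to 40 per Ctrl library and 6 over all CKO libraries. Aldh3b3 fell from 3.65 ± 0.698 to 0.107 ± 0.177 CPM (log2 change -4.92, SE 0.66). Without CKO 2, which holds 4 of those 6 counts, the fold change was -6.00. Of the exons of the main transcript only the last had CKO coverage, which was assigned to another transcript of the gene.

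The wider aldehyde dehydrogenase family also held genes that fell. Of 19 tested members edgeR called 3 lower and 0 higher, where 1.26% of all tested genes fell. With an unadjusted p under 0.05, 6 were lower and 2 higher. DESeq2 called 3 lower and 1 higher, and limma voom 3 lower and 0 higher. The mitochondrial Aldh1b1 fell from 104 ± 10.4 to 61.0 ± 10.2 CPM (-0.76, SE 0.13, edgeR quasi-likelihood adjusted p = 0.0136). Aldh16a1 fell from 35.7 ± 3.74 to 24.3 ± 1.84 CPM (-0.55, edgeR quasi-likelihood adjusted p = 0.0145). Aldh1l2, the mitochondrial enzyme of folate metabolism, fell from 35.7 ± 6.92 to 21.5 ± 3.79 CPM (-0.73, edgeR quasi-likelihood adjusted p = 0.0358). These changes were far smaller than that of Aldh3b3, and each call was lost when certain single libraries were left out. Calls over all genes fell too, from 497 to 221, 190 and 237 without Ctrl 1, Ctrl 2 and Ctrl 4. Aldh1b1 missed the threshold without Ctrl 1 or Ctrl 2 (edgeR adjusted p = 0.0503 and 0.0564), and Aldh16a1 without Ctrl 1 or Ctrl 4 (0.0559 and 0.0513). Aldh1l2 missed it without any 1 of Ctrl 1, 2 and 4 and CKO 1, 3, 4, 5 and 6, with edgeR adjusted p up to 0.134.

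Sds encodes serine dehydratase, which turns serine into pyruvate and is best known from the liver. The gene (ENSMUSG00000029597) spans 120476526 to 120483932 of chromosome 5 on its plus strand. The controls stood at 9.82, 10.3, 11.5 and 8.42 CPM. CKO libraries ran from 0.336 CPM in CKO 1 through a median of 1.68 to 2.29 CPM in CKO 5. Sds fell from 10.01 ± 1.29 to 1.53 ± 0.705 CPM (log2 change -2.70, SE 0.35), leaving 15.3% of the Ctrl mean. Liver markers summed to 55.6 to 226 CPM in Ctrl libraries and 24.5 to 123 CPM in CKO libraries, and Cyp2e1 made up most of this sum (51.7 to 219 CPM in Ctrl and 21.7 to 115 CPM in CKO). Tat was at 3.10 to 6.13 CPM in Ctrl and 2.15 to 6.98 CPM in CKO, and Apoa1 and Ttr stayed under 1 CPM in every library. edgeR tested 2 of the 6 and called 0 (1 lower at an unadjusted p under 0.05), DESeq2 and limma voom called 0, and Serpina1a was at 0. The part of liver transcripts in the fall of Sds was not tested.

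Of 14 tested genes of serine and glycine metabolism, edgeR called 0 higher and 0 lower, where 2.80% of all tested genes passed. At an unadjusted p under 0.05 there were 1 higher (Sardh) and 1 lower (Amt), and DESeq2 and limma voom called 0. Sdsl, the paralog of Sds that lies 3715 bases away on the opposite strand, averaged 4.45 ± 1.91 CPM in Ctrl against 4.78 ± 1.80 CPM in CKO (0.10, edgeR quasi-likelihood adjusted p = 0.905). Dld, a subunit shared by mitochondrial dehydrogenases and the glycine cleavage system, was at 330.2 ± 27.4 and 359 ± 31.7 CPM. Gcsh, also of the glycine cleavage system, was at 44.9 ± 6.61 and 48.8 ± 6.57 CPM. Plbd2 overlaps Sds on the opposite strand and had 347 to 370 counts in Ctrl and 267 to 329 in CKO. The kit named in the labels keeps no strand, so reads of overlapping genes cannot be told apart.

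Slc7a7 encodes the light chain y+LAT1, which pairs with the heavy chain Slc3a2 to carry cationic amino acids out of cells and is abundant in kidney, gut and macrophages. The gene (ENSMUSG00000000958) spans 54369442 to 54417780 of chromosome 14 on its minus strand. It stood at 37.2, 42.3, 37.4 and 40.6 CPM in Ctrl 1 to 4, the narrowest relative spread of the set (6.34% of the mean). CKO libraries ran from 10.6 through a median of 12.4 to 16.4 CPM. Slc7a7 fell from 39.4 ± 2.50 to 12.9 ± 2.05 CPM (log2 change -1.61, SE 0.12). Summed macrophage markers were at 953 to 1979 CPM in Ctrl libraries and 1450 to 2758 CPM in CKO libraries. These ranges overlapped, and none of the 10 markers was at 0. edgeR called 3 of the 10 higher and 0 lower, where 1.54% of all tested genes rose. Of the 10, 9 were higher and 0 lower at an unadjusted p under 0.05, and DESeq2 called 8 higher and limma voom 4. The 1.54% holds for edgeR only. Over all tested genes DESeq2 called 692 higher and limma voom 237 higher. The part of macrophages in the level of Slc7a7 was not tested.

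Among 11 tested genes of the same transporter family, edgeR called 0 higher and 0 lower, where 2.80% of all tested genes passed. Slc7a1 was the 1 gene lower at an unadjusted p under 0.05 and the 1 that DESeq2 called lower, and limma voom called 0. The partner Slc3a2 averaged 49.6 ± 8.05 CPM in Ctrl against 48.3 ± 6.92 CPM in CKO (-0.04, edgeR quasi-likelihood adjusted p = 0.907). Slc7a1, a carrier that takes up cationic amino acids, was at 64.2 ± 18.3 and 40.9 ± 3.12 CPM (-0.65, edgeR quasi-likelihood adjusted p = 0.0766). Slc7a6, the other light chain of the same transport system, was at 14.03 ± 3.35 and 15.1 ± 3.20 CPM and was named after its values were seen. Oxa1l overlaps the 3′ end of Slc7a7 on the opposite strand and had 483 to 629 counts in Ctrl and 577 to 711 in CKO.

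Exons of Slc7a7 did not lose coverage evenly, which was noticed in the data and is given as a description. Noncoding exon 2 of the main transcript (chromosome 14, 54416589 to 54416770) went from 5.97 ± 1.46 to 0.327 ± 0.445 reads per base, 5.48% of Ctrl. Exon 4, the first with coding sequence (54408503 to 54409048), went from 7.28 ± 0.722 to 2.78 ± 0.605 reads per base, 38.2% of Ctrl. Exons 4 to 12 kept 23.6% to 38.2%. Exon 2 over exon 4 was 1.06, 0.686, 0.599 and 0.958 in Ctrl 1 to 4. In CKO 1 to 6 the same ratio was 0.0932, 0, 0, 0.256, 0.0104 and 0.299, so the groups did not overlap. Exon 2 is part of 3 annotated transcripts that start far upstream, and exon 4 of 10, some of which start close to it.

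**Figure D2:**
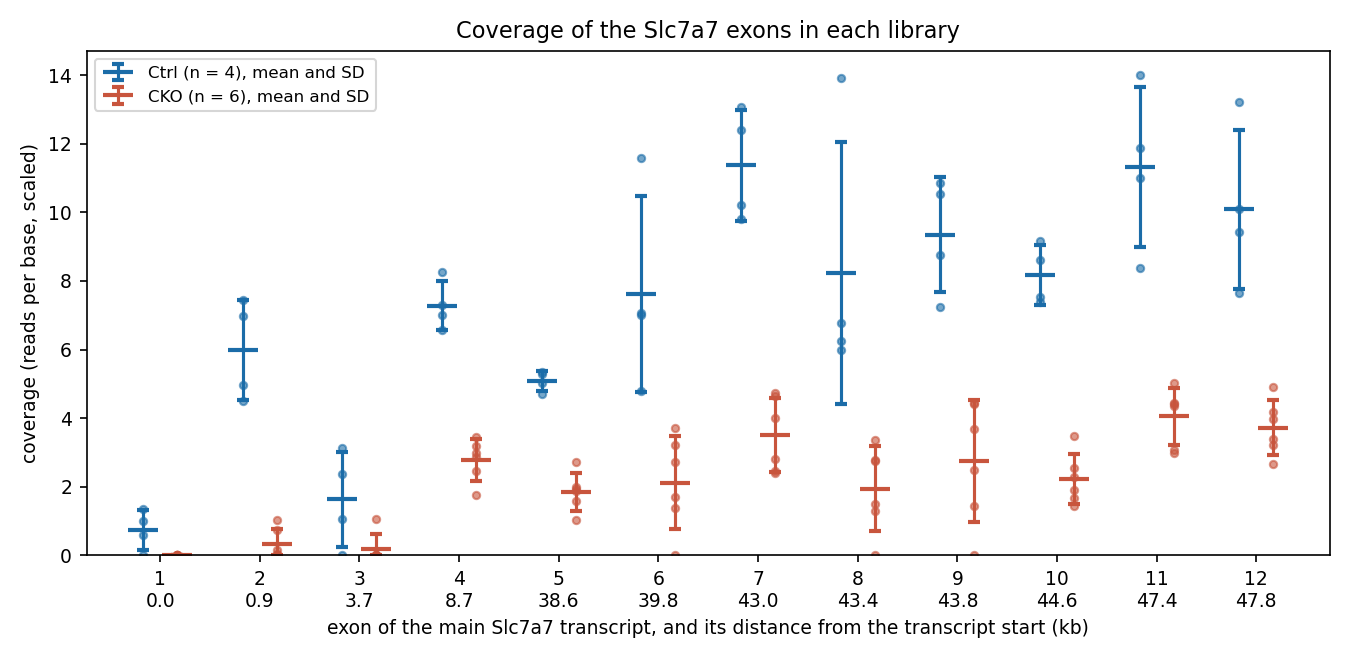
Coverage of the 12 exons of the main Slc7a7 transcript in reads per base scaled to the mean library (y axis), with the exon number and its distance from the transcript start in kb (x axis), for single Ctrl (blue) and CKO (red) libraries with means and SD bars. Noncoding exon 2 keeps 5.48% of the Ctrl coverage, whereas exons 4 to 12 keep 23.6% to 38.2%. Exons 1 and 3 are thinly covered in Ctrl too, with exon 1 at 0 in Ctrl 3 and exon 3 at 0 in Ctrl 1.

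RefSeq gives Slc7a7 several starts, and the 250 bases before the most upstream start (54417944) and before the start next to exon 4 (54409472) are printed as the outermost and the innermost of these start regions. The annotated transcripts that hold exon 2 start further downstream, at 54417780, 54417699 and 54417679. The bases before the nearby RefSeq starts 54417702 and 54417679 overlap annotated exons and are not printed. The upstream stretch is chr14:54417945-54418194 and the downstream stretch chr14:54409473-54409722, both on the minus strand. Neither holds GGTGTG or its complement on this build.
Slc7a7 upstream: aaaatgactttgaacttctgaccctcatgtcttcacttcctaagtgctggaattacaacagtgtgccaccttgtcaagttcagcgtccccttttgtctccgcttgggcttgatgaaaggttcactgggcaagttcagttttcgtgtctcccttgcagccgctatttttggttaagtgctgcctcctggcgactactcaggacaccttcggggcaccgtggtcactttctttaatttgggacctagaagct
Slc7a7 downstream: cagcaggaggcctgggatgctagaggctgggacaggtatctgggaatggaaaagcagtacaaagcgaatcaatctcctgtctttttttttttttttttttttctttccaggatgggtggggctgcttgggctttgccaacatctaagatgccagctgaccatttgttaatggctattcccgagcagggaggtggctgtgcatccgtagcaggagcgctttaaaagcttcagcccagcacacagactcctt

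Cilp2 encodes a secreted protein of the cartilage matrix. The gene (ENSMUSG00000044006) spans 69880369 to 69887687 of chromosome 8 on its minus strand, with 1 annotated transcript. It was at 42.8, 63.6, 32.8 and 40.5 CPM in Ctrl 1 to 4 and in CKO ran from 1.99 through a median of 4.22 to 5.99 CPM. The lowest control thus stood several times above the highest CKO library. Cilp2 fell from 44.9 ± 13.2 to 3.89 ± 1.58 CPM (log2 change -3.53, SE 0.30), with 8.65% left. Its 8 exons kept between 1.77% and 16.0% of the Ctrl coverage.

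Of 13 tested genes of the cartilage-type matrix, edgeR called 1 higher and 0 lower, where 1.54% of all tested genes rose. Of the 13, 2 were higher and 0 lower at an unadjusted p under 0.05, and DESeq2 called 2 higher and limma voom 1. The gene that rose, Matn2, an adaptor protein of matrix filaments, went from 82.8 ± 4.12 to 141 ± 23.8 CPM (0.77, SE 0.13, edgeR quasi-likelihood adjusted p = 0.0118), against the direction of Cilp2. The call held without any single library. The paralog Cilp, named after its values were seen, averaged 98.8 ± 38.3 CPM in Ctrl against 144 ± 40.0 CPM in CKO (0.55, edgeR quasi-likelihood adjusted p = 0.325).

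Cdh22 encodes a classical cadherin of the brain and pituitary, an adhesion protein that joins like cells. The gene (ENSMUSG00000053166) spans 165111507 to 165234853 of chromosome 2 on its minus strand. It was the least abundant of the set per length, at 2.24 ± 1.21 TPM (a level scaled by transcript length) in Ctrl. Its level was 3.91, 7.10, 2.33 and 2.77 CPM in Ctrl 1 to 4, the widest relative spread of the set (53.5% of the mean), with Ctrl 2 high. CKO libraries ran from 0 through a median of 0.412 to 0.659 CPM. Cdh22 fell from 4.03 ± 2.15 to 0.358 ± 0.223 CPM (log2 change -3.44, SE 0.52), on 20 counts over all CKO libraries.

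Of 18 tested cadherin and catenin genes, edgeR called 0 in either direction, where 2.80% of all tested genes passed. At an unadjusted p under 0.05 there were 3 higher and 3 lower. DESeq2 called Cdh2 and Cdh11 higher and Ctnna1 lower, and limma voom called 0. Ctnna1, an alpha-catenin, averaged 604 ± 39.3 CPM in Ctrl against 471 ± 44.4 CPM in CKO (-0.36, edgeR quasi-likelihood adjusted p = 0.0888). Ctnnb1, beta-catenin, was at 351 ± 54.8 and 405 ± 27.2 CPM (0.21, edgeR quasi-likelihood adjusted p = 0.389). Cdh2, the N-cadherin of cardiomyocyte junctions, was at 170.0 ± 37.0 and 273 ± 50.3 CPM (0.69, edgeR quasi-likelihood adjusted p = 0.0719) and was named after its values were seen.

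Fcamr encodes a receptor for the constant part of IgA and IgM antibodies. The gene (ENSMUSG00000026415) spans 130800902 to 130814740 of chromosome 1 on its plus strand. Ctrl 1 to 4 stood at 7.71, 13.1, 8.33 and 10.2 CPM, and CKO libraries ran from 0.327 through a median of 1.01 to 1.52 CPM. Fcamr fell from 9.83 ± 2.42 to 0.934 ± 0.445 CPM (log2 change -3.38, SE 0.34), with 9.49% left. Covered exons kept 7.39% to 9.33% of their Ctrl coverage, similar shares along the transcript.

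B cell transcripts varied between libraries. The 7 B cell markers summed to 595, 1217 and 816 CPM in Ctrl 3, Ctrl 4 and CKO 4 and to at most 57.9 CPM in the other libraries, and 0 of 5 tested passed with edgeR, DESeq2 or limma voom or at an unadjusted p under 0.05. In Ctrl 1 and 2, with B cell sums of 17.5 and 20.9 CPM, Fcamr was at 7.71 and 13.1 CPM. In Ctrl 3 and 4 it was at 8.33 and 10.2 CPM. In CKO 4 it was at 1.52 CPM, the highest of the CKO libraries. The part of B cells in the level of Fcamr was not tested. Of 10 tested Fc receptor and antibody genes, edgeR called 0 in either direction, where 2.80% of all tested genes passed. At an unadjusted p under 0.05 there were 5 higher and 0 lower. DESeq2 called Fcgr3, Fcer1g and Fcgr1 higher, receptors of myeloid cells, and limma voom Fcgr3. Among the antibody-related genes Ighm, the IgM heavy chain, averaged 365 ± 451 CPM in Ctrl against 139 ± 255 CPM in CKO, and the neonatal receptor Fcgrt at 118 ± 13.4 and 158 ± 27.7 CPM. The uncharacterised gene Gm15848 overlaps Fcamr on the opposite strand and had 11, 30, 23 and 33 counts in Ctrl 1 to 4 and 0 in every CKO library. Its Ctrl mean of 2.66 ± 1.10 CPM was at least 49.2-fold above the level that 3 counts over the whole CKO group would give (edgeR quasi-likelihood adjusted p = 0.00683). Gm15848 passed the filter through its Ctrl libraries only, so its call is not free of this contrast and is a description. Without strand in the library the reads of Gm15848 and Fcamr cannot be told apart.

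Lmntd1 encodes a protein with a lamin tail domain whose function is not well known. The gene (ENSMUSG00000054966) spans 145365134 to 145614319 of chromosome 6 on its minus strand. It was the most abundant of the set per length, at 70.5 ± 24.3 TPM in Ctrl. Its level was 73.7, 92.2, 47.4 and 81.8 CPM in Ctrl 1 to 4, with Ctrl 3 low. The CKO libraries lay close together, from 12.8 through a median of 14.7 to 16.8 CPM. Lmntd1 fell from 73.8 ± 19.1 to 14.6 ± 1.56 CPM (log2 change -2.34, SE 0.16), with 19.8% left. All 9 exons of its main transcript were covered in both groups and kept 14.8% to 27.6% of the Ctrl coverage. Small genes overlap it on the opposite strand, the largest being 1700073E17Rik with 7 to 37 counts in Ctrl and 1 to 5 in CKO.

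Of 14 tested lamin and nuclear envelope genes, edgeR called 0 in either direction, where 2.80% of all tested genes passed. At an unadjusted p under 0.05 there were 3 higher (Lmna, Lmnb1 and Lmnb2) and 0 lower. DESeq2 called Lmna higher and limma voom called 0. Syne2, a giant linker of nucleus and cytoskeleton, averaged 456 ± 33.2 CPM in Ctrl against 454 ± 36.3 CPM in CKO. Syne1, its paralog, was at 421 ± 45.8 and 392 ± 71.7 CPM. Lmna, the A-type lamin, was named after its values were seen and stood at 144 ± 7.36 and 190.2 ± 24.3 CPM (0.40, edgeR quasi-likelihood adjusted p = 0.0829).

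By level per length in Ctrl the order was Lmntd1 (70.5 ± 24.3 TPM), Slc7a7 (41.6 ± 10.1), Sds (26.1 ± 2.49), Cilp2 (21.6 ± 6.72), Alox8 (13.6 ± 2.27), Fcamr (11.1 ± 3.44), Aldh3b3 (4.19 ± 1.51) and Cdh22 (2.24 ± 1.21). Each neighbouring pair in this order overlapped between control libraries, except Slc7a7 and Sds and except Fcamr and Aldh3b3. In CKO the order began with Lmntd1 (11.9 ± 2.11 TPM), Slc7a7 (11.2 ± 2.12) and Sds (4.31 ± 1.68).

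Over all 8 families and pathways, 1 of 117 tested relatives rose and 3 fell, beside 1.54% and 1.26% of all tested genes. These lists had a median log2 fold change of 0.02. The 4 calls became 1 without Ctrl 1, 2 without Ctrl 2 or Ctrl 4 and 10 without Ctrl 3. The relatives with a log2 fold change under -1, none of which passed, were Aldh3b2 (-1.98), Slc7a14 (-1.46), Ighm (-1.40), Jchain (-1.31), Fcer2a (-1.27) and Pla2g5 (-1.05). The counts per list ranged from 0 of 18 for the Alox8 relatives to 3 of 19 for the aldehyde dehydrogenases.

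**Figure D3:**
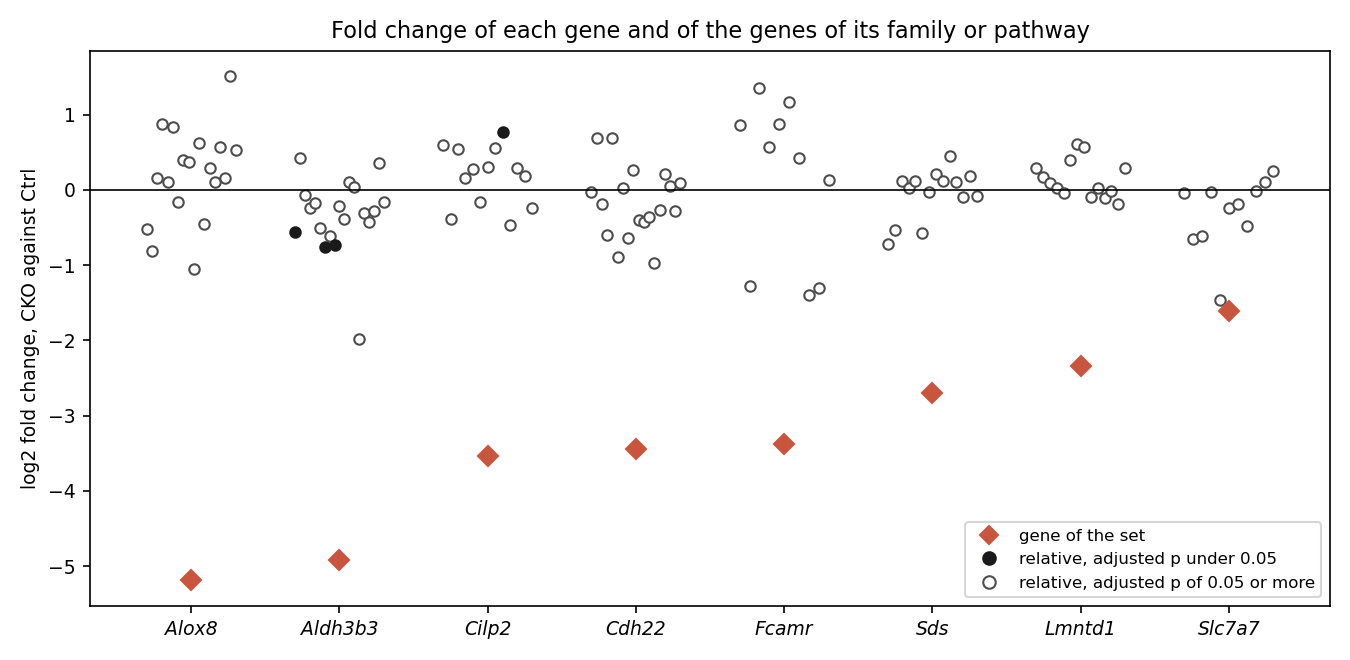
Log2 fold change of CKO against Ctrl (y axis) for each of the 8 genes (red diamonds) and the tested genes of its family or pathway (circles, filled where the adjusted p was under 0.05), grouped by gene (x axis). The 8 genes lie at or below their relatives, of which 4 of 117 are filled: 3 lower aldehyde dehydrogenases and the higher Matn2.

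The nearest genes on the chromosome that passed the filter on low counts were compared. For 8 of these 16 an untested gene lay nearer. Of the 16, edgeR called 2 lower and 0 higher, where 1.26% of all tested genes fell. There were 3 lower and 0 higher at an unadjusted p under 0.05, and DESeq2 and limma voom each called 2 lower. Gucy2e, a guanylyl cyclase gene of the retina, lies 20273 bases before the start of Alox8 on the same strand. It was at 1.90, 1.97, 1.67 and 2.55 CPM in Ctrl 1 to 4, and 4 of 6 CKO libraries had none, the others standing at 0.303 and 0.565 CPM. Gucy2e fell from 2.02 ± 0.374 to 0.145 ± 0.239 CPM (-3.69, SE 0.74, edgeR quasi-likelihood adjusted p = 0.0240). Gucy2e passed the filter through its Ctrl libraries only, so its call is not free of this contrast and the count of 2 is a description. Both neighbour calls were lost without Ctrl 2. For Gucy2e the edgeR adjusted p was 0.0743, 0.0797 and 0.0738 without Ctrl 1, Ctrl 2 or Ctrl 4.

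Yjefn3, a gene of the apolipoprotein A-I binding protein family, ends 100 bases before the start of Cilp2 on the same strand. It was at 4.75, 7.65, 6.33 and 5.87 CPM in Ctrl 1 to 4 and between 0.630 and 2.60 CPM in CKO, with no overlap. Yjefn3 fell from 6.15 ± 1.20 to 1.59 ± 0.777 CPM (-1.95, SE 0.35, edgeR quasi-likelihood adjusted p = 0.0155), and the edgeR adjusted p was 0.0656 without Ctrl 2. Whether reads that run on between the genes are shared was not tested. Aldh3b2, a paralog that begins 224 bases past the end of Aldh3b3, was at 2.01 ± 1.07 and 0.493 ± 0.525 CPM (-1.98, SE 0.75, edgeR quasi-likelihood adjusted p = 0.212), with overlap between groups. Reads that fit both paralogs could be split by the counting, so this pair is uncertain. None of the other neighbours passed: Per1 at Alox8, Unc93b1 at Aldh3b3, Lpar2 at Cilp2, Cd40 and Slc35c2 at Cdh22, AA986860 and Mapkapk2 at Fcamr, Sdsl and Slc8b1 at Sds, Gm44428 and Gm15704 at Lmntd1, and 5330426L24Rik and Mrpl52 at Slc7a7. Their log2 fold changes ran from -0.87 for Gm15704 to 0.31 for Unc93b1.

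**Figure D4:**
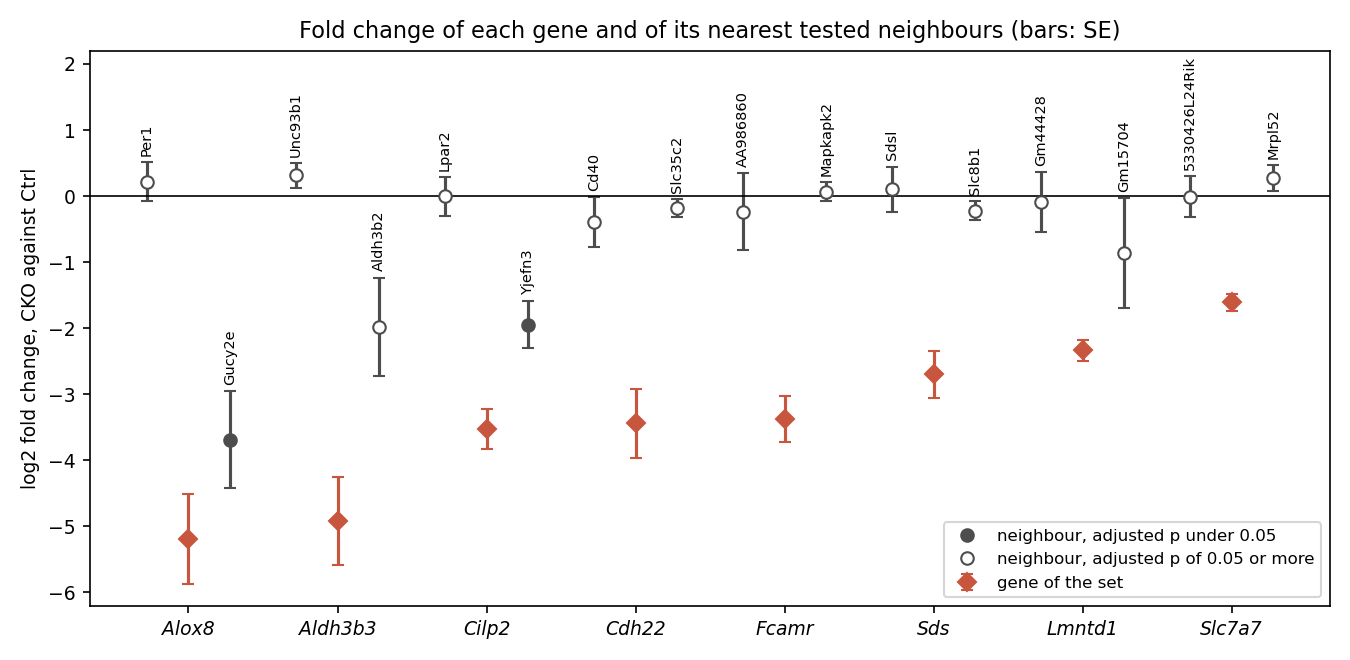
Log2 fold change of CKO against Ctrl with SE bars (y axis) for each of the 8 genes (red diamonds) and its nearest tested gene on either side (circles, filled where the adjusted p was under 0.05), grouped by gene (x axis). Most neighbours lie near 0, and Gucy2e beside Alox8 (-3.69) and Yjefn3 beside Cilp2 (-1.95) are the filled ones.

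CKO and Ctrl were also compared in the left atrial appendage, known here through the fold changes of the authors' deposited table. It holds 13646 genes and 7 of the 8 (all but Cdh22). The appendage libraries are samples of another series, whose recombinase, drug schedule and age are not given here. The 8 genes were chosen with earlier results of these data known, so the appendage values are given as a description. In the authors' deposited table all 7 had a false discovery rate under 0.05 in the appendage and were lower in CKO, where 17.9% of all its genes were. Their median log2 fold change in the appendage was -4.05 in the authors' deposited table, beside 0.02 over all its genes and -3.39 for the same 7 in the vein region. Aldh3b3 had the lowest appendage value of all 13646 genes in the authors' deposited table (-6.62, false discovery rate 1.6e-31). Fcamr was the fifth lowest in the authors' deposited table (-5.36, false discovery rate 2.48e-32). The authors' deposited table gave Cilp2 -4.54, Sds -4.05, Lmntd1 -3.91 and Slc7a7 -2.02 in the appendage, with false discovery rates of 1.23e-96, 1.83e-33, 3.17e-67 and 6.22e-29. Alox8 was -3.84 there, with the highest false discovery rate of the 7 in the authors' deposited table (0.0182).

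Side by side, the authors' deposited table gave vein and appendage fold changes of -5.21 and -3.84 for Alox8, the only gene of the 7 with the lower value in the vein. For Aldh3b3 they were -4.93 and -6.62, and for Fcamr -3.39 and -5.36, in the authors' deposited table. Alox8 was also 80.7-fold higher in the vein region in the authors' deposited table. The bearing of this difference on its appendage fold change was not tested. The difference in the effect of the deletion between regions was not tested. Yjefn3, the neighbour of Cilp2, was also lower in the appendage in the authors' deposited table (-3.68, false discovery rate 1.78e-13).

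The vein region was also compared with the appendage in the authors' deposited table, where positive values are higher in the vein region. The appendage libraries are samples of another series, so region and series cannot be told apart. The airway gene Scgb1a1 was also higher in the vein region there (log2 13.8, false discovery rate 6.73e-08). Which libraries entered that comparison is not stated, and it shares the vein controls with the comparison of CKO and Ctrl if controls were used. Alox8 was 80.7-fold higher in the vein region in the authors' deposited table (log2 6.33, false discovery rate 7.11e-39), where 8.19% of all its genes were higher. Cilp2, Sds and Slc7a7 were lower in the vein region in the authors' deposited table, by log2 values of -2.10, -1.28 and -0.69 (false discovery rates 1.42e-18, 1.88e-06 and 0.00204), where 4.06% of all its genes were lower. Aldh3b3 (-0.74), Fcamr (-0.04) and Lmntd1 (0.11) did not pass in the authors' deposited table, with false discovery rates of 0.110, 0.961 and 0.847.

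**Figure D5:**
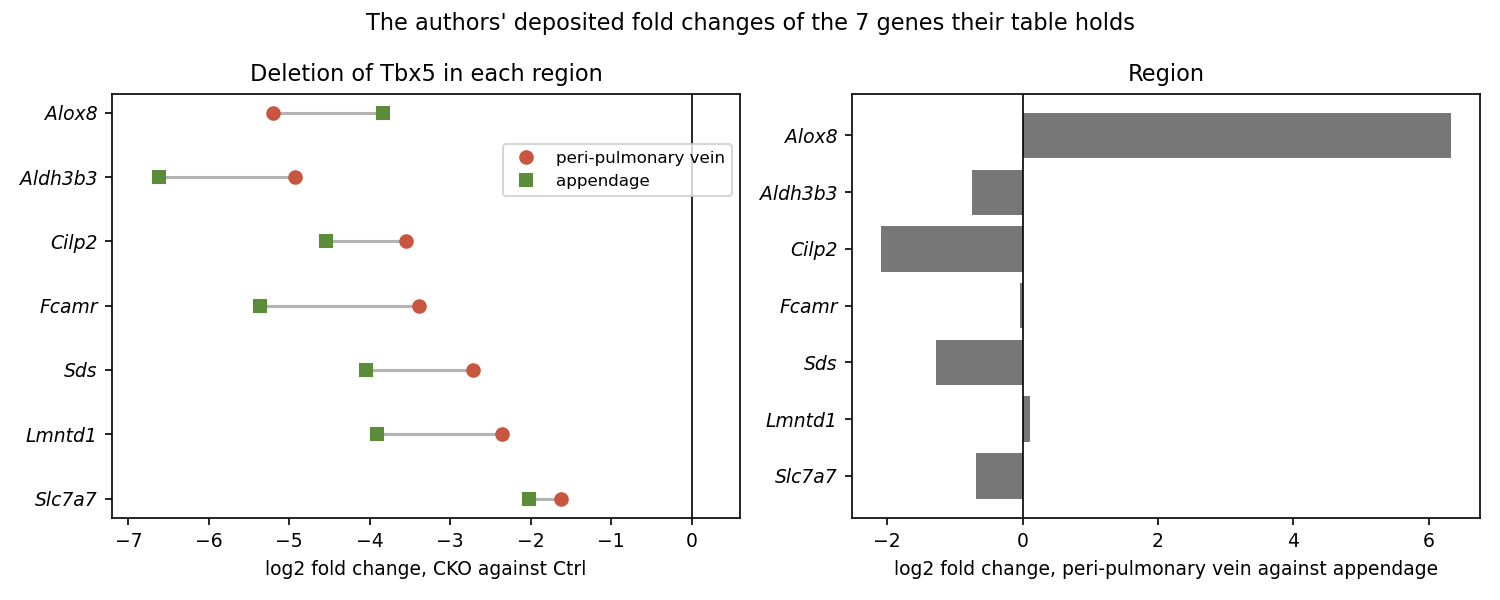
Log2 fold changes from the authors' deposited table for the 7 genes it holds: CKO against Ctrl in the vein region (red circles) and the appendage (green squares) on the left, and the vein region against the appendage as bars from 0 on the right. All deletion values are below 0, and Alox8 (6.33) is the gene far above 0 for region.

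The 8 genes were also compared with one another. Over the 10 libraries the correlation of log2(CPM + 1) between pairs was 0.907 to 0.990 in all 28 pairs, all of which share the group difference by which the genes were picked. After the group means were removed, it ran from -0.42 (Alox8 and Aldh3b3) to 0.79 (Cilp2 and Fcamr) with a median of 0.10, and was below 0 in 11 pairs. It was higher within 2 sets of genes, noticed in the data: 0.65 to 0.76 among Alox8, Sds and Slc7a7, and 0.55 to 0.79 among Cilp2, Fcamr and Lmntd1. Alox8, Sds and Slc7a7 are the genes that were higher in every one of CKO 4, 5 and 6 than in CKO 1, 2 and 3. All points share library depth and scaling, and these are descriptions over 10 libraries. CKO 1 was the highest CKO library for 0 of the 8 genes, and CKO 4, 5 and 6 for 2 each. Ctrl 3, a library with airway transcripts, was the lowest control for Alox8, Aldh3b3, Cilp2, Cdh22 and Lmntd1. Without Ctrl 3 and CKO 4 the median fold change of the 8 was -3.64.

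The genes whose pattern was most like each of the 8 over the 10 libraries were found by the same correlation, which rests largely on the group difference by which the 8 were picked. Each of these partners had a lower fitted level in CKO. They were Mybphl (0.979) and Myl7 (0.978) for Alox8, Sbk2 (0.977) and Cntn2 (0.976) for Aldh3b3, and Sbk2 (0.988) and Sbk3 (0.982) for Fcamr. For Lmntd1 they were Cpne5 (0.994) and Cntn2 (0.984), and for Slc7a7 Myl7 (0.978) and Slc25a26 (0.975). Sds was most like Mapk10 (0.983) and the prostaglandin receptor gene Ptgfr (0.980). Cilp2 was most like Zfp983 (0.989) and Pzp (0.980), and Cdh22 like Max (0.990) and Zfp579 (0.981). With group means removed the closest of these pairs were Cdh22 with Max (0.933) and Lmntd1 with Cpne5 (0.899), and the least close was Aldh3b3 with Sbk2 (0.187).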

How the data were processed

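RNA of 10 peri-pulmonary vein samples (4 Ctrl, 6 CKO) was sequenced. Per the submitters' processing notes, reads were aligned to mm10 with TopHat2 2.1.1, assigned with StringTie 1.3.3 and tested in R 3.4.0 with limma 3.32.10 and edgeR 3.18.1; per the study's design text, BamTools removed poorly aligned and duplicated reads. Per the file headers, StringTie used the Ensembl GRCm38.94 annotation with a setting for stranded reads, whereas the kit per the labels does not mark strand. The labels give polyA RNA but the protocol removal of ribosomal RNA.

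The deposited gene table holds estimated counts. For all 54532 genes they equal each transcript's coverage times its length divided by the read length of 50 and rounded up. The deposited transcript files give coverage in reads per base and TPM. The authors' deposited table gives log2 fold changes, p-values and false discovery rates for 3 comparisons of 13646 genes. How genes were filtered and modelled is not given in the sources used here. 10 columns of appendage libraries in the gene table were not used.

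Counts were fitted with edgeR 4.0.16 in R 4.3.3: filterByExpr, TMM, quasi-likelihood F test with genotype as the term, Benjamini-Hochberg adjustment over 17752 genes, threshold 0.05. Being made from coverage, these counts are not raw read numbers. Library totals ran from 8602794 to 10040808, which leaves the lowest genes on few reads. Libraries of a group differed beyond counting error (chi-square per degree of freedom at least 11.2). The labels do not say that samples share animals, and p-values measure the spread between these samples. In data simulated for CKO against Ctrl with 17352 genes, 51.6%, 92.1% and 100% of genes changed by log2 1, 2 and 3 were found, and 7 of 164 calls were false. Exon coverage was summed over transcripts and scaled to library size. Sequences and motif windows came from RefSeq, GRCm38.p6; Sds had no window. Groups came from the sample titles.

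The 8 genes, the 8 lists of relatives and the 12 marker lists were chosen with earlier results of these data known. Named genes were the 8; Tbx5; in each list of relatives those past the threshold, at most 3, or else the 2 with the highest mean CPM; the nearest tested neighbour on each side; for each of the 8 the 2 most correlated genes with a mean of 1 CPM or more, names that are only clone numbers left out; and overlapping genes. Others are named as chosen after their values were seen. Alternatives were other scaling, filters, DESeq2 1.42.0, limma 3.58.1 voom, covariates and leaving out libraries.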

Additional observations from a re-analysis of the deposited data

How the results depend on the processing

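That CKO lies below Ctrl for the 8 genes is how they were chosen, so the alternatives bear only on the size of the fold change. Leaving out each library gave a median fold change between -3.53 and -3.10. Single values moved most for Alox8 (-6.31 with limma voom) and Aldh3b3 (-6.37 as a ratio of mean TPM), which rest on few CKO counts. Over all genes, 497 passed (274 higher, 223 lower), 1132 with DESeq2 and 190 to 607 with each library left out (305, 331, 221, 190 and 237 without CKO 1, CKO 2, Ctrl 1, Ctrl 2 and Ctrl 4). With library size alone as the scale, 288 of 515 calls were lower. Of the 117 relatives, 4 passed, 17 with DESeq2, 7 with Xist as a covariate, 9 without Ctrl 3 and CKO 4 together and 1 to 10 with each library left out. Of the 16 neighbours, 2 passed, 1 without the filter on low counts and 0 to 2 with each library left out (1 without Ctrl 1 or Ctrl 4, 0 without Ctrl 2). The causes were not tested.

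Deviations from the group means of Ctrl and CKO libraries with the same replicate number had correlations of 0.0463, 0.116, -0.381 and 0.0971. These values cannot settle whether the replicate number pairs animals, which the labels do not say. With the number as a replicate block, 37 genes passed, with 0 relatives and 0 neighbours, and the median fold change of the 8 was -3.30. Depth limits Alox8, Aldh3b3, Cdh22 and Gucy2e, whose CKO values rest on 0 to 13 counts per library. It also limits Fcamr and Sds, with 3 to 15 and 3 to 21 counts per CKO library.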
